A study of Mus musculus with 18 samples.

Results

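Primary B-cell lymphomas of Eµ-myc mice were compared after 5 days of Adriamycin (ADR) given together with 4-hydroxytamoxifen (4-OHT) and without treatment. The comparison rests on 6 of the 17 arrays with values: 3 arrays of cultures that received both compounds and 3 arrays of untreated cultures, paired by the lymphoma number (4146, 4936 and 5043) in the sample names. It was described over all 11897 genes that passed a filter on low values, of 18194 genes with a named probe set, with 1 probe set a gene, the brightest on average over the 17 arrays. The lymphomas came from lymph nodes of Eµ-myc transgenic, Suv39h1-null mice on a C57/Bl6 background, and animal ages are not given in the sources used here. All cultures, untreated ones included, carried retrovirally introduced Suv39h1-ERT2 and Bcl2. The treated group received ADR and 4-OHT for 5 days in vitro (n = 3), the untreated group neither (n = 3), and the group set beside them ADR alone for 5 days (n = 3). No group received 4-OHT without ADR, so what 4-OHT does without the drug was not analysed here.

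The Eµ-myc transgene drives the oncogene Myc from an immunoglobulin enhancer in B cells, and lymphomas of these mice divide fast. ADR (doxorubicin) traps topoisomerase II on DNA and so causes double-strand breaks. Bcl2 blocks the mitochondrial route to apoptosis, so that cells with damaged DNA stay alive and can enter senescence, a lasting arrest in which cells enlarge, fill with lysosomes and secrete cytokines and proteases. Suv39h1 places the trimethyl mark on lysine 9 of histone H3, the mark of heterochromatin, and its fusion to the hormone-binding part of the oestrogen receptor makes its activity depend on 4-OHT. The comparison therefore asks how damaged lymphoma cells with switched-on Suv39h1 differ from proliferating ones that lack it. Suv39h1 had no probe set of its own among the named ones and was not analysed here.

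Values are log2 array signals, so a difference of 1 is a doubling, and every fold below comes from that scale. Lymphomas are given in the order 4146, 4936 and 5043 throughout. The mean over 39 B-cell genes was 8.15, 8.21 and 8.21 in the untreated and 8.25, 8.14 and 8.27 in the treated arrays. Shifts between the lymphomas had been taken out upstream, so likeness between lymphomas is partly given. Single B-cell markers differed in level. Over the 6 arrays Cd79b lay at 10.54 to 11.15, Blk at 5.05 to 5.99 and Ms4a1 at 4.39 to 7.05. The treated array of lymphoma 4146 stood apart from the rest of its lymphoma. Xist was 2.78 on it against 5.68 to 7.85 on the other arrays of that lymphoma, and Igha, a heavy chain gene, was 1.17 against 5.08 in the untreated culture. Another 3 arrays, outside the comparison (ADR alone of lymphoma 4936 and the big and small outgrowth of 5043), had Xist between 11.97 and 12.26. They entered the estimate of spread, the choice of probe sets and the filter, and the first of them also the values of ADR alone. The main counts are given with all arrays and without these 4, as are many of the lists and genes whose calls this moved. The fit without these 4 keeps the treated arrays of lymphomas 4936 and 5043 only, against the 3 untreated ones.

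Of the 11897 genes, 106 rose and 244 fell, which is 0.891% and 2.05% of those tested (limma, Benjamini-Hochberg adjusted p below 0.05). A change of at least 2-fold was reached by 49 of the former and 144 of the latter. The median difference was 0.96 over the rising and fell by 1.13 over the falling genes, while the median over all genes was 0.00. Every one of the 350 called genes moved in the same direction in all 3 lymphomas, as 42% of all genes did, and had groups that did not overlap, which 31.1% of all genes also had. Both are nearly given by the call itself. Without the 4 arrays in doubt, 312 genes rose and 467 fell (2.62% and 3.93%), among them 67 of the 106 and 191 of the 244. These 2 shares are the ones to set beside the list counts given below without these arrays. With only the treated array of lymphoma 4146 left out, 138 rose and 409 fell. In limma, the 6 arrays alone gave 0 calls (2164 at an unadjusted p below 0.05). There were also 0 without lymphoma 4146 (1804 unadjusted), 7 without 4936 and 0 without 5043 (1477 unadjusted), and of the treated or untreated arrays left out singly, each but the treated one of 4146 cut the 350 calls by over 1.5 times, to between 14 and 129.

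Calls of the genes named below often ended under other settings. All 94 called genes drawn by the naming rules lost their calls with the 6 arrays alone, without lymphoma 4146 and without 5043, and 88 did without 4936. The 10 that ended without the 4 arrays in doubt are marked where they are named. The rest are listed here once. Of 94, 32 ended when the probe sets of a gene were averaged: Cbx5, Ccl9, Ccna2, Cenpk, Cyria, Ddb2, Degs1, E2f7, E2f8, Etaa1, F9, Fancd2, Fanci, Gmps, Gstt3, Hmgb2, Impact, Itgb3bp, Kif11, Map1lc3b, Mxd4, Nfatc1, Nsmce1, Psph, Rad51b, Rasgrp2, Rela, Rsrc1, Sapcd2, Suv39h2, Tinf2 and Top2a. Without the filter 16 ended: Ccl9, Ccna2, Ddb2, Degs1, E2f7, E2f8, Etaa1, F9, Gstt3, Ifi35, Kif11, Nsmce1, Psph, Rad51ap1, Rela and Rsrc1. Without the 3 outlying arrays those of Ccna2, Cdc25c, Gmps, Nfatc1, Psph, Rad51ap1 and Uqcrc2 ended. Ccl9, Degs1 and Rela ended with median centring, Ccl9 and Etaa1 with a variance trend, Ifi35 and Uqcrc2 with quantile normalisation, and Lyz2 and S1pr1 without the lymphoma term. None of the 94 changed direction.

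**Figure D1:**
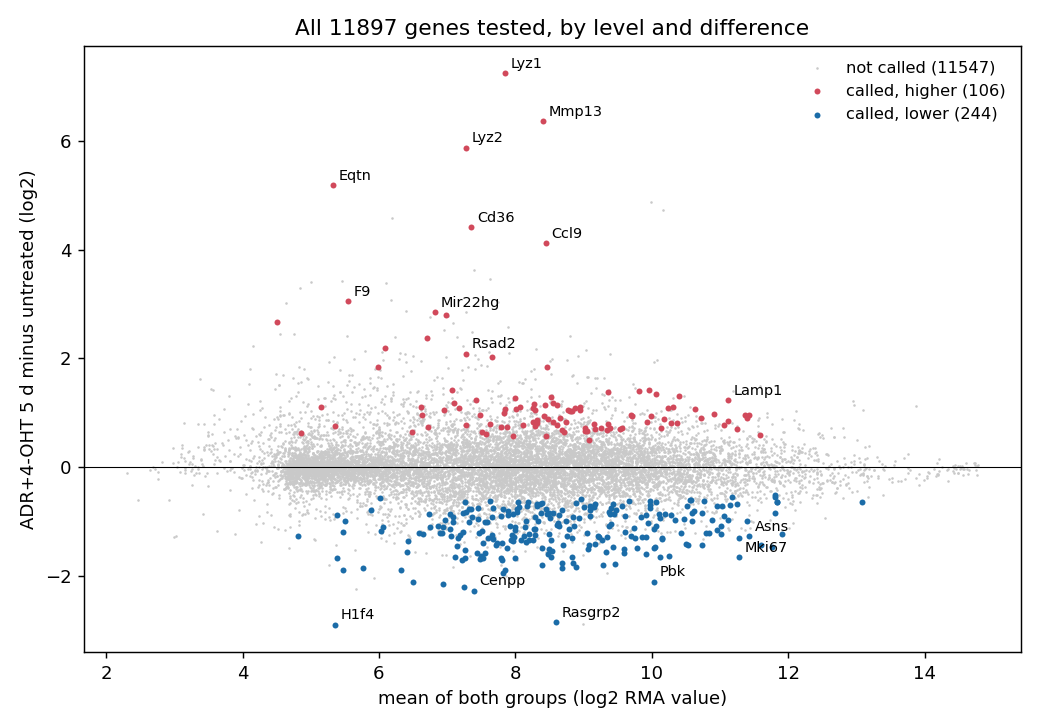
Difference between treated and untreated cultures (y axis, log2) against the mean level of both groups (x axis, log2 RMA value), with 1 point per gene. Red points rose (106), blue points fell (244) and grey points did not pass; the rising genes reach 7.23 (Lyz1) and the falling ones -2.89 (H1f4).

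Lyz1, one of the mouse lysozyme genes, stood at 4.18, 4.83 and 3.67 in untreated and at 11.45, 13.84 and 9.09 in treated cultures. Its difference was 7.23 (SE 1.18, n = 3, adjusted p = 0.0157), and every treated value lay far above every untreated one. The neighbouring and near-identical Lyz2 differed by 5.87 (SE 1.15, adjusted p = 0.0272); the probe set of Lyz1 belongs to a class that can read related transcripts, so the rise cannot be split between them. Mmp13, a collagenase, rose from 3.19, 6.65 and 5.84 to 9.30, 15.02 and 10.44 (difference 6.36, SE 1.18, adjusted p = 0.0242). Lymphoma 4936 had the highest treated value for both Lyz1 and Mmp13.

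Cd36, a receptor that takes up fatty acids and oxidised lipoproteins, went from 4.29, 5.95 and 5.21 to 9.52, 9.38 and 9.78 (difference 4.41, SE 0.69, adjusted p = 0.0134). All 3 treated values were nearly equal, on a scale from which shifts between the lymphomas had been taken out upstream. The chemokine gene Ccl9 rose from 6.39, 6.59 and 6.17 to 9.51, 11.82 and 10.18 (difference 4.12, SE 0.99, adjusted p = 0.0496). Averaging probe sets, no filter, median centring and a variance trend each ended that call. The 6 arrays alone and leaving out any 1 lymphoma ended it as well. F9, the gene of coagulation factor IX, rose by 3.06 (SE 0.71, adjusted p = 0.0455), with treated values of 8.34, 7.08 and 5.79 against 4.12, 4.10 and 3.82. Ptgir, the prostacyclin receptor, rose by 2.20 (SE 0.47, adjusted p = 0.0343).

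Eqtn encodes equatorin, a protein of the sperm acrosome. It was at 2.10, 2.90 and 3.22 in untreated cultures, all under 4.86, the median of all array values, and at 6.78, 7.88 and 9.11 after treatment. The difference was 5.18 (SE 0.63, adjusted p = 0.00612), and 3.07 when values under 4.86 were set to it. The gene met the filter through its treated arrays, since 1 array of the other groups alone reached that level. All 3 probe sets of Eqtn passed, with differences of 3.15 to 5.18. The gene lies at chr4:94875697-94929953 (GRCm38.p6). Ms4a4b, a membrane protein gene known from T cells, likewise came from under that level (3.13, 2.94 and 3.45) and reached 6.33, 5.14 and 6.07 (difference 2.67, SE 0.36, adjusted p = 0.00952). With values under 4.86 set to it the difference was 0.99, and the untreated level is at background. Ms4a4b met the filter through its treated arrays, as no untreated or ADR-only array reached 4.86. Its neighbour Ms4a4c rose by 2.38 (SE 0.48, adjusted p = 0.0288), by 4.03 in lymphoma 4146 and 0.96 in 5043. All 8 Ms4a genes tested, of 17 named in a family picked after its values were seen, lay above 0 with a median of 2.23. Of the tested ones 2 passed. The other named members did not meet the filter on low values, so the shared direction holds for the tested ones only.

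Several rising genes act on signalling and transcription. Pik3r3, a regulatory subunit of phosphoinositide 3-kinase, rose by 2.80 (SE 0.50, adjusted p = 0.0215), and Nfatc1, a calcium-dependent transcription factor, by 1.30 (adjusted p = 0.0356, and 0.0617 without the 4 arrays). Mxd4, a partner of Max that opposes Myc at E-boxes, went from 9.38, 9.29 and 9.47 to 10.83, 10.12 and 11.23 (difference 1.35, SE 0.27, adjusted p = 0.0288). Impact, an inhibitor of the amino acid sensor kinase Gcn2, rose by 1.38 on the probe set used (adjusted p = 0.0242), while its other probe sets gave 0.13 and -0.23. Sdc4, a heparan sulphate proteoglycan, rose by 1.32, Degs1, a ceramide-synthesis desaturase, by 1.41, and Gstt3, a glutathione transferase, by 2.03. Ttll3, Cyria, Tmppe and the unnamed gene C920009B18Rik rose by between 1.27 and 1.85.

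Among the rising transcripts were the precursors of 2 microRNAs. Mir22hg, the host transcript of miR-22, went from 5.16, 5.88 and 5.15 to 7.52, 9.47 and 7.75 (difference 2.85, SE 0.62, adjusted p = 0.035). The probe set named Mir142, singled out after its values were seen, went from 7.74, 7.56 and 7.77 to 8.29, 9.05 and 9.24 (difference 1.17, SE 0.27, adjusted p = 0.0419). In both, every treated array lay above every untreated one. The arrays read the long transcript and not the mature microRNA, whose sequence is shown to say which RNA each host carries. The mature 3p forms (RefSeq, GRCm38.p6) are given with bases 2 to 8, the seed that pairs with targets, in capitals, and the seeds are not shared.
mmu-miR-22-3p, chr11:75463772-75463793, plus strand: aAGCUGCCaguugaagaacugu
mmu-miR-142a-3p, chr11:87756903-87756925, plus strand: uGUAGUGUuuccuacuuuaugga

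**Figure D2:**
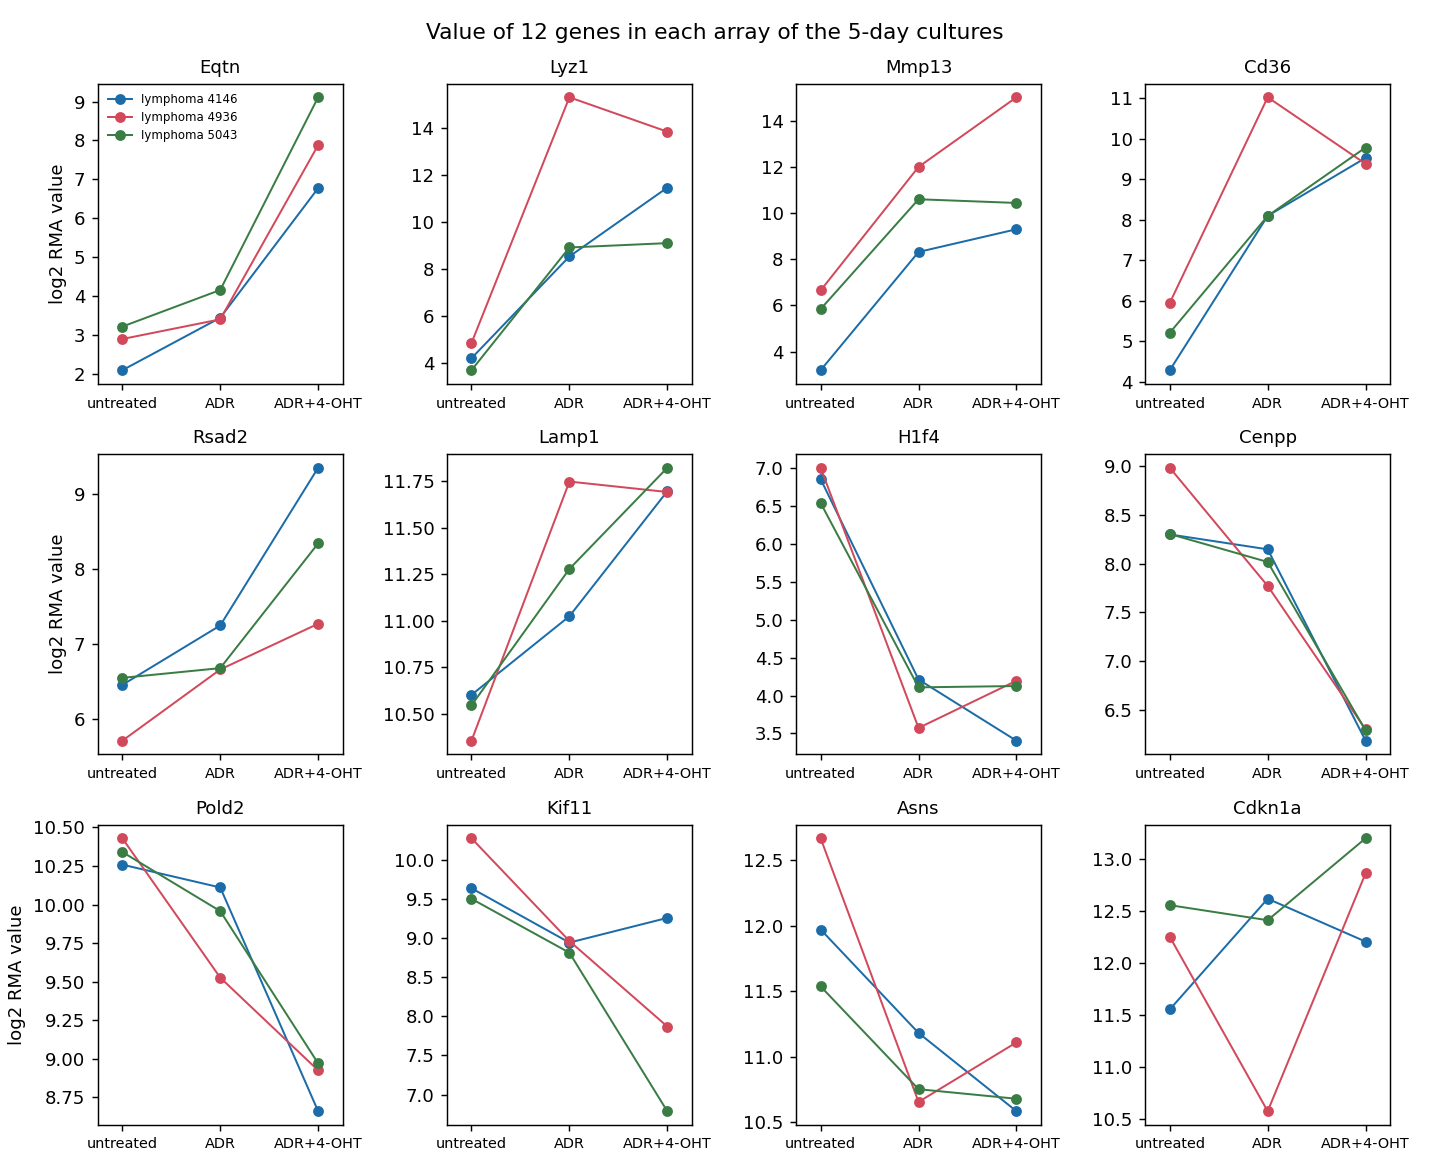
Log2 RMA value (y axis) of 12 genes in each array of the 5-day cultures; points are single arrays, coloured by lymphoma, and lines join the arrays of 1 lymphoma. Eqtn stays at or below 4.16 in untreated and ADR-only cultures and lies at 6.78 to 9.11 with 4-OHT, while H1f4 lies between 3.40 and 4.21 in both treated groups.

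Of 44 lysosome genes tested, 38 lay above 0 with a median difference of 0.66, and the medians within the lymphomas were 0.56, 0.72 and 0.80. Lamp1 and Tpp1 rose, or 4.55% of the list against the 0.891% of all genes that rose. Lamp1, a main glycoprotein of the lysosomal membrane, went from 10.60, 10.36 and 10.55 to 11.70, 11.69 and 11.82 (difference 1.23, SE 0.23, adjusted p = 0.0245). Tpp1, a lysosomal peptidase, rose by 1.41 (SE 0.31, adjusted p = 0.0398). Ctsd, the aspartyl protease cathepsin D, had a larger difference of 1.64 that did not pass (SE 0.47, adjusted p = 0.0833). Without the 4 arrays in doubt 13 of the 44 rose, against 2.62% of all genes.

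V-ATPase is the proton pump that acidifies lysosomes. All 14 of its subunits tested, of 20 named in a family picked after its values were seen, lay above 0 with a median of 0.78. The pump subunits Atp6v1e1 (0.91, SE 0.15, adjusted p = 0.0157) and Atp6v0e (0.90, SE 0.16, adjusted p = 0.0227) passed. Atp6v1e1 was at 11.17, 11.17 and 11.16 in treated against 10.23, 10.23 and 10.31 in untreated cultures. Shifts between the lymphomas had been taken out of these values upstream. Of 31 autophagy genes, with a median of 0.21, Map1lc3b, which coats the autophagosome membrane, rose by 0.85 (SE 0.19, adjusted p = 0.0374, and 0.0502 without the 4 arrays). Its other probe sets gave 0.60, 0.68 and -0.39. Rragc, a GTPase that tethers the growth kinase complex mTORC1 to lysosomes, rose by 0.81, and was likewise picked after its values were seen.

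Many lysosomal promoters carry CACGTG, the E-box read by TFEB-type factors and by Myc with Max. It was searched on either strand, a palindrome, in the 250 bases before the RefSeq start. It stood in 28.9% of 38 lysosome genes and in 9.96% of all 9647 tested genes with a promoter sequence, but in 9.3% of the 86 rising genes with one. The 100 bases before the Lamp1 start are shown because they hold 4 such boxes, in capitals, and Lamp1 is the lysosome gene with the lowest adjusted p.
Lamp1, chr8:13159061-13159160, plus strand, GRCm38.p6: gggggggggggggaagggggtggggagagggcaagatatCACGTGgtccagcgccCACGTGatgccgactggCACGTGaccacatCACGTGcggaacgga

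None of the 28 senescence-associated secreted factors passed, although 24 lay above 0 and their median difference was 0.90. Ccl3, a chemokine, had the largest difference, from 7.90, 8.14 and 6.60 to 10.65, 14.05 and 12.56 (4.87, SE 1.18, adjusted p = 0.0509). Il6, a central senescence cytokine, went from 1.68, 3.71 and 3.99 to 4.46, 6.39 and 7.59 (3.02, SE 0.85, adjusted p = 0.0812, and a difference of 1.42 with values under 4.86 set to it). Cxcl2, a neutrophil chemokine, differed by 3.42 (adjusted p = 0.226). The groups did not overlap for Ccl3 or Il6, as was so for 31.1% of all genes. For Il6 every untreated value and the treated value of lymphoma 4146 lay under 4.86. Without the 4 arrays in doubt 5 of the 28 rose, against 2.62% of all genes, Ccl3 (6.03, adjusted p = 0.00492) and Il6 (3.46, adjusted p = 0.0418) among them. The median of the list was then 0.62.

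Macrophage markers were higher in the same cultures. Of 31 named markers 17 were tested, 16 of those lay above 0 with a median difference of 1.64, and Lyz1 and Lyz2 passed (7 without the 4 arrays in doubt). The mean over the 31 was 4.63, 4.85 and 4.46 in untreated, 5.41, 7.08 and 5.42 in ADR-only and 5.53, 6.23 and 5.59 in treated arrays. Defining markers divided: Mrc1, C1qa, C1qb and Adgre1 stayed under 4.86 in all 6 arrays, whereas Csf1r was at 6.97, 7.31 and 6.84 against 5.17, 5.70 and 4.35 (adjusted p = 0.156). Mpeg1, a pore-forming protein of phagocytes, was at 9.41, 8.64 and 8.05 against 6.29, 5.90 and 5.36 (adjusted p = 0.0556). In bulk RNA more cells of a type and more of its RNA per cell cannot be told apart, and the part of other cells in the rise of Lyz1, Lyz2, Cd36, Ccl9 and Mmp13 was not tested. Of 19 granulocyte markers 11 stayed under 4.86 in all 6 arrays, S100a9, Ngp, Elane and Mpo among them. The 8 tested had a median difference of 0.89, none passed, and 2 rose without the 4 arrays. Lcn2, an iron-binding granule protein, differed by 4.59 (adjusted p = 0.0967, and 0.00919 without the 4 arrays), Mmp8, a collagenase, by 2.46, and S100a8 by 1.63. With values under 4.86 set to it, Lcn2 differed by 3.62 and Mmp8 by 1.02. S100a8 lay under 4.86 on 5 of the 6 arrays. Of 14 endothelial markers 11 stayed under 4.86 in all 6 arrays. The 30 fibroblast markers had a mean of 4.78, 4.62 and 4.96 without and 4.83, 5.34 and 5.19 with treatment, against 5.58, 6.20 and 5.41 with ADR alone. None of them passed, with differences of 1.54 for fibronectin (Fn1) and 1.27 for biglycan (Bgn), and 2 rose without the 4 arrays. No T-cell, NK-cell, dendritic or erythroid marker passed, and 1 of the T and NK cells rose without the 4 arrays.

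Of 38 interferon-stimulated genes tested, 33 lay above 0 with a median of 0.43, and the lymphoma medians were 1.05, 0.28 and 0.28. The highest lies in lymphoma 4146, the pair with the array in doubt. Rsad2 (viperin), which blocks viral replication, rose from 6.46, 5.71 and 6.55 to 9.36, 7.27 and 8.35 (difference 2.09, SE 0.36, adjusted p = 0.0191). Ifi35 rose by 0.98 (SE 0.24, adjusted p = 0.0493, and 0.0672 without the 4 arrays). The ISRE motif of interferon-responsive promoters stood in 33.3% of 30 interferon genes with a promoter sequence and in 3.14% of all genes. Of the 86 rising genes with such a sequence 4.65% held it. Of 27 genes of the NF-kB list 22 lay above 0, and Rela, its activating subunit, rose by 0.80 (SE 0.19, adjusted p = 0.0455, and 0.0758 without the 4 arrays). Of 33 p53 targets 28 lay above 0 with lymphoma medians of 0.38, 0.36 and 0.42, and none rose past the threshold. Ddb2, which recognises ultraviolet lesions and is a p53 target in human cells, fell by 1.67 (adjusted p = 0.0455).

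**Figure D3:**
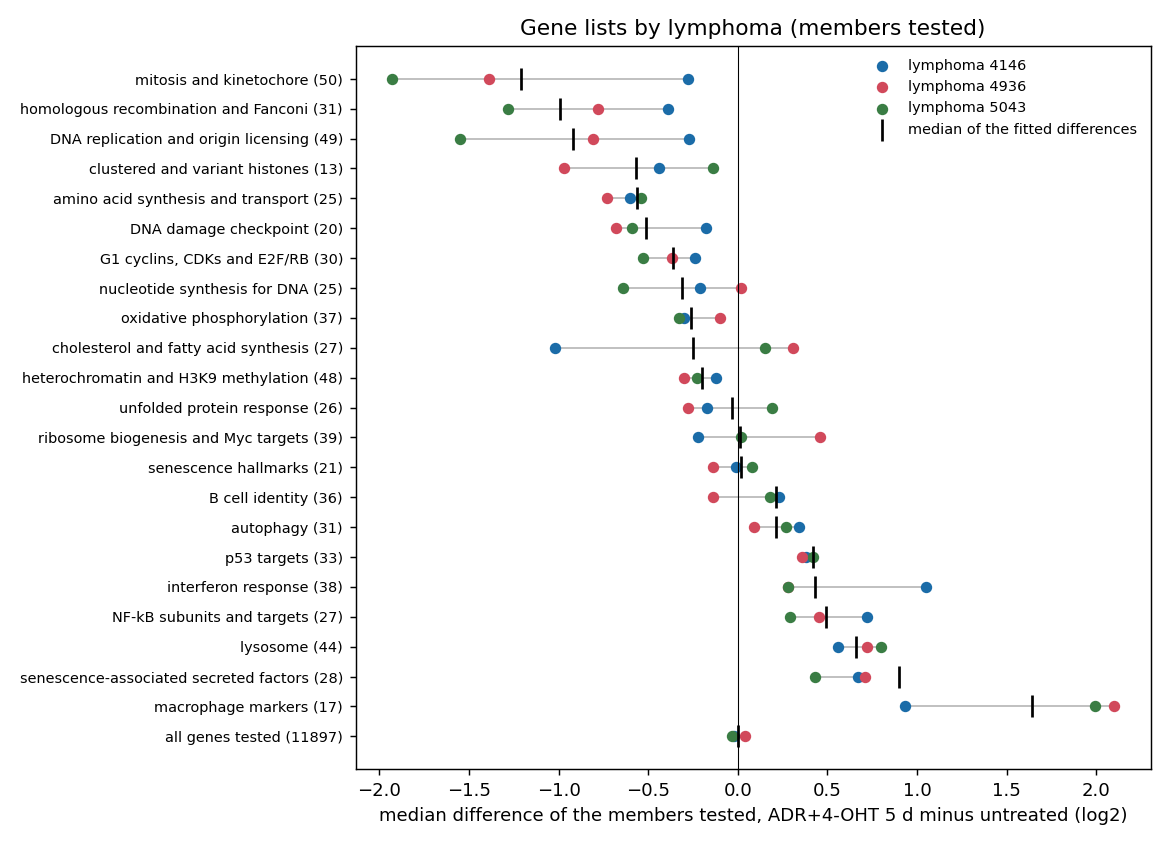
Median difference (x axis, log2) of the tested members of 22 gene lists and of all genes, ADR+4-OHT 5 d minus untreated; coloured points are the 3 lymphomas and the black stroke is the median of the fitted differences. Mitosis genes span -0.28 to -1.93 over the lymphomas, while amino acid synthesis genes stay between -0.54 and -0.73.

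Of the 50 gene lists, that of mitosis held the most falling genes. Of its 50 mitosis and kinetochore genes, 23 fell and none rose, 46% of the list against 2.05% of all genes. The median difference was -1.21, and 49 of the 50 lay below 0. Cenpp, a subunit of the inner kinetochore, went from 8.30, 8.98 and 8.30 to 6.19, 6.30 and 6.29 (difference -2.27, SE 0.26, adjusted p = 0.00468). Ska1, which couples kinetochores to shrinking microtubules, fell by 2.20 (SE 0.33, adjusted p = 0.0119), although its least bright probe sets gave -1.06 and 0.06. Nuf2, part of the Ndc80 complex that grips microtubules, lay between 8.47 and 9.03 untreated and between 6.18 and 7.37 treated (difference -1.95, SE 0.32, adjusted p = 0.0157).

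The same list held the kinase Aurkb of the chromosomal passenger complex (-1.77, SE 0.33, adjusted p = 0.0243) and Cenpk (-1.79, SE 0.35, adjusted p = 0.0271). The spindle motor Kif11, which pushes the poles apart, went from 9.64, 10.28 and 9.50 to 9.26, 7.87 and 6.79 (difference -1.83, SE 0.42, adjusted p = 0.0436). Top2a, the enzyme that ADR traps, fell by 1.46 (SE 0.30, adjusted p = 0.0296), from 12.04, 12.78 and 12.64 to 11.79, 10.79 and 10.49. Knl1, Bub1b, Ccnb2, Cdca8 and Tpx2, picked from the list after its values were seen, also fell, by 1.66, 1.48, 1.28, 1.21 and 1.21.

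Complexes that shape chromosomes and spindles were picked as families after their values were seen. All 8 condensin subunits lay below 0 with a median of -1.27, and 5 passed, among them Smc4 (-1.43, SE 0.22, adjusted p = 0.0119). All 8 augmin subunits, which branch spindle microtubules, lay below 0, and Haus1, Haus4 and Haus7 fell by 0.87, 1.27 and 1.01. Poc1b, a centriole protein, went from 7.05, 7.49 and 7.26 to 5.01, 5.57 and 5.55 (difference -1.89, SE 0.22, adjusted p = 0.00468). Of 7 shelterin genes, which cap telomeres, Terf1 fell by 1.31 (adjusted p = 0.00963) and Tinf2 by 1.66 (adjusted p = 0.0195), the latter on 1 of its 2 probe sets. Itgb3bp, a kinetochore protein (Cenp-R), fell by 1.58 (SE 0.20, adjusted p = 0.00612). Nrm, a protein of the inner nuclear membrane, fell by 2.10 (SE 0.27, adjusted p = 0.00763), as did the mitotic kinase Pbk (-2.10, SE 0.31, adjusted p = 0.0119). Ccdc34, Shcbp1, Sapcd2, Ccdc18, Arhgef39 and the kinesin Kif18a fell by between 1.67 and 1.89, and Zfp938 by 1.85 (adjusted p = 0.0272, and 0.0589 without the 4 arrays). Diaph3, an actin nucleator of dividing cells, fell by 1.40 (SE 0.16, adjusted p = 0.00468) with differences of -1.43, -1.35 and -1.42.

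The median of the mitosis genes was -0.28 in lymphoma 4146, -1.39 in 4936 and -1.93 in 5043, and 38, 49 and 50 of the 50 members lay below 0. The difference between lymphomas was not tested, and lymphoma 4146 is the pair with the array in doubt. Without the 4 arrays in doubt 47 of the 50 fell, against 3.93% of all genes, and the median was -1.60. That fit lacks the treated array of 4146, the lymphoma whose median lay nearest 0. Kif11, whose differences were -0.38, -2.41 and -2.72, was among the 5 called genes with the widest range, while Cenpp had -2.11, -2.68 and -2.01.

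**Figure D4:**
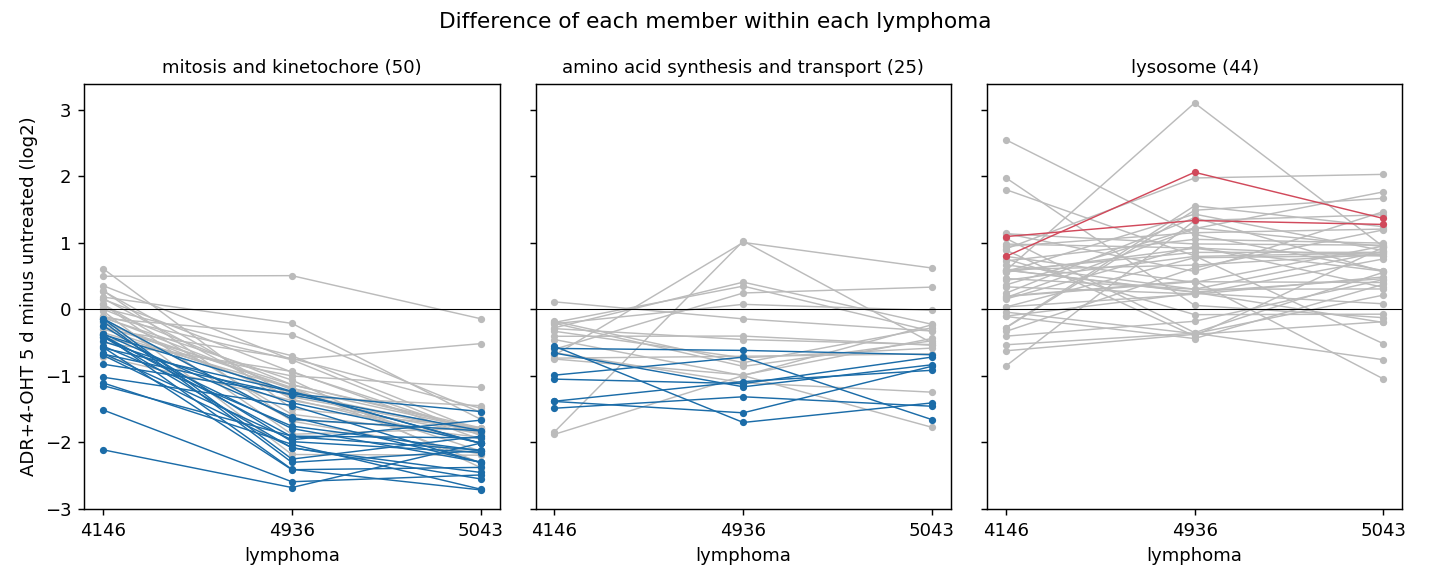
Difference between treated and untreated cultures (y axis, log2) of each tested member of 3 gene lists within each lymphoma (x axis); lines join the values of 1 gene, blue ones fell, red ones rose and grey ones did not pass. The mitosis genes lie nearest 0 in lymphoma 4146, whereas the amino acid synthesis and lysosome genes have like medians in all 3.

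Promoters of mitosis genes often carry CHR elements and CCAAT boxes, read by the MuvB complexes and by NF-Y. The letters TTTGAA (CHR) and CCAAT were searched on either strand in the 250 bases before the RefSeq start. TTTGAA stood in 35.7% of the 42 mitosis genes with a promoter sequence, in 17.2% of 198 falling genes and in 12.6% of all 9647. CCAAT stood in 66.7%, 53.5% and 40.1% of the same sets. Over the 100 bases before the start these shares were 23.8%, 9.6% and 4.04% for TTTGAA and 54.8%, 41.9% and 25.5% for CCAAT. Windows of 3 falling mitosis genes are shown as examples, with either motif in capitals as it reads on the strand of the gene (TTCAAA and ATTGG are the opposite-strand forms). Ccnb2 and Cdca8 hold 3 CCAAT boxes each, and Kif11 holds both motifs.
Kif11, chr19:37376282-37376381, plus strand, GRCm38.p6: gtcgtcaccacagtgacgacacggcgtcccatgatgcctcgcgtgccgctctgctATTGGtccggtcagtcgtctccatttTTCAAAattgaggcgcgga
Ccnb2, chr9:70421555-70421654, minus strand, GRCm38.p6: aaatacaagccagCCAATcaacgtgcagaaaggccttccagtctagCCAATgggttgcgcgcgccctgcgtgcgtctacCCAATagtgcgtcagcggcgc
Cdca8, chr4:124936918-124937017, minus strand, GRCm38.p6: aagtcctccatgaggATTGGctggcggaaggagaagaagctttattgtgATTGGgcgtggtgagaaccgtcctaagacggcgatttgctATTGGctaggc

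Of 49 DNA replication genes, 8 fell (16.3%, against 2.05% of all genes) and none rose, 47 lay below 0 and the median was -0.92. Pold2, a subunit of DNA polymerase delta, had one of the lowest adjusted p-values of all genes, with 10.26, 10.43 and 10.34 in untreated and 8.66, 8.92 and 8.97 in treated cultures (difference -1.49, SE 0.17, adjusted p = 0.00468). Gins1, part of the replicative helicase, fell by 1.76 (SE 0.31), Pola1, the primase-bound polymerase, by 1.65 (SE 0.25), the ligase Lig1 by 1.63 (SE 0.34) and Pold1 by 1.60 (SE 0.24). Rfc4, a subunit of the clamp loader, also fell (adjusted p = 0.0288). Rnaseh2a, which removes ribonucleotides from DNA, fell by 1.20 (SE 0.13, adjusted p = 0.00468). An E2F site (TTTCCCGC, TTTGGCGC, TTTCGCGC or TTTGCCGC, either strand, same window) stood in 21.1% of 38 replication genes and in 3.89% of all genes. Among 198 falling genes with a promoter sequence the site stood in 5.56%. Over the 100 bases before the start the shares were 10.5% of replication, 1.52% of falling and 1.78% of all genes. Without the 4 arrays in doubt 33 of the 49 replication genes fell, against 3.93% of all genes, with a median of -1.22.

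Genes of nucleotide supply and of G1 control also held falling members. Tk1, which salvages thymidine, went from 9.42, 9.82 and 9.57 to 8.16, 7.86 and 7.24 (difference -1.85, SE 0.33, adjusted p = 0.0227), and Rrm1, the large subunit of ribonucleotide reductase, fell by 1.20 (SE 0.23). In all, 4 of 25 nucleotide synthesis genes fell (16%, against 2.05% of all genes), one of them Gmps of guanine synthesis (-0.69, adjusted p = 0.0462, and 0.0598 without the 4 arrays). Its other probe sets gave 0.20 and 0.26. Of 30 genes of G1 cyclins, their kinases and the E2F and RB factors, 6 fell (20%), among them Fbxo5, an inhibitor of the anaphase-promoting complex (-1.76, SE 0.27, adjusted p = 0.0119). The others were the pocket protein Rbl1 (-1.49), cyclin A2 (Ccna2, -1.42), the E2F repressors E2f8 (-1.37) and E2f7 (-1.21), and the ubiquitin ligase subunit Skp2 (-1.13). Without the 4 arrays in doubt 11 of the 30 fell and 1 rose, against 3.93% and 2.62% of all genes.

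Of 31 genes of homologous recombination and the Fanconi pathway, 9 fell (29%, against 2.05% of all genes). The median was -0.99, and 29 lay below 0. Without the 4 arrays in doubt 17 fell, against 3.93% of all genes, with a median of -1.07. Rad54b, a recombination motor, fell by 2.14 (SE 0.45, adjusted p = 0.0312), with differences of -0.54, -3.28 and -2.60. Rad51b, Brip1, Fancd2, Rad51ap1 and Fanci fell by 1.89, 1.55, 1.51, 1.40 and 1.31. Of 20 damage checkpoint genes, H2ax, Cdc25c (-1.19) and Etaa1 (-1.13) fell (15%), and 9 fell without the 4 arrays. Of 26 genes of mismatch, excision and end-joining repair only Ddb2 passed, and the median was -0.17. The mismatch repair gene Pms1, outside that count, fell by 1.18 (adjusted p = 0.00662). H2ax, the histone that is phosphorylated at breaks, went from 10.14, 10.40 and 9.94 to 8.80, 8.55 and 8.72 (difference -1.47, SE 0.16, adjusted p = 0.00468). H1f4, a replication-linked linker histone, reached 3.40, 4.20 and 4.13 after treatment, lower than untreated by differences of -3.45, -2.81 and -2.41 (fitted difference -2.89, SE 0.40, adjusted p = 0.00952), and by -1.94 when values under 4.86 were set to it; clustered histone genes are alike in sequence, so its probe set may read relatives.

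Of 25 genes of amino acid synthesis and transport 8 fell (32%, against 2.05% of all genes) and 24 lay below 0. The lymphoma medians were -0.60, -0.73 and -0.54. Cth, which makes cysteine from cystathionine, lay between 10.90 and 11.51 untreated and between 9.44 and 10.02 treated (difference -1.42, SE 0.26, adjusted p = 0.023). Asns, asparagine synthetase, went from 11.97, 12.67 and 11.54 to 10.59, 11.11 and 10.68 (difference -1.27, SE 0.28, adjusted p = 0.0364, and 0.0517 without the 4 arrays). The serine pathway enzymes Psat1 and Psph fell by 1.22 and 1.12, and the mitochondrial folate enzymes Shmt2 and Mthfd2 by 1.13 and 0.96.

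Enzymes that charge transfer RNAs, many of them targets of the stress factor ATF4 like Asns and Cth, were looked at next. Of 21 cytosolic synthetase genes, picked as a family after their values were seen, 19 lay below 0, and Cars, Mars1, Yars, Farsb and Gars fell by 1.26, 1.07, 0.92, 0.84 and 0.63 (Yars with an adjusted p of 0.0645 without the 4 arrays). The ATF4-responsive Chac1 and Trib3 differed by -1.55 each and did not pass (adjusted p = 0.213 and 0.241). The unfolded protein response list as a whole had a median of -0.03. Among mitochondrial genes, 63 of 76 mitochondrial ribosomal protein genes, another such family, lay below 0 with a median of -0.28. Of 37 genes of oxidative phosphorylation 29 lay below 0 with a median of -0.26, and Uqcrc2 of complex III fell by 0.54 (SE 0.12, adjusted p = 0.0426, and 0.119 without the 4 arrays). Cholesterol and fatty acid synthesis had medians of -1.02, 0.31 and 0.15 in the 3 lymphomas, and no member passed.

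Rasgrp2, Klf2 and S1pr1 came from 3 different lists. Rasgrp2, an exchange factor that activates integrins through Rap1, went from 9.80, 9.89 and 10.37 to 7.47, 6.58 and 7.47 (difference -2.85, SE 0.56, adjusted p = 0.0272), and its other probe sets gave -2.38, -2.25 and -0.40. Klf2, a factor that keeps lymphocytes quiescent and drives S1pr1, went from 8.50, 7.91 and 8.54 to 7.07, 6.38 and 6.61 (difference -1.63, SE 0.34, adjusted p = 0.0332). S1pr1, the receptor by which lymphocytes leave lymph nodes, fell by 1.45 (SE 0.31, adjusted p = 0.0332, and 0.0719 without the 4 arrays). Rasgrp2 alone of 36 B-cell identity genes passed, and their median was 0.21. Spib differed by 1.71 (adjusted p = 0.191) and Cd22, an inhibitory co-receptor, by -1.29 (adjusted p = 0.136).

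Of 21 tested senescence hallmark genes 5 fell (23.8%, against 2.05% of all genes) and none rose: Mki67 (-1.65, SE 0.37, adjusted p = 0.04), Rbl1, Hmgb2 (-1.30, SE 0.27), Suv39h2 (-1.20, SE 0.25) and Cbx5 (-0.79, SE 0.17). Hmgb2 is a chromatin protein that senescent cells lose. Suv39h2, the close relative of Suv39h1, went from 7.37, 7.52 and 7.57 to 6.83, 6.27 and 5.77 (adjusted p = 0.0303), and Cbx5, which encodes the heterochromatin protein HP1 alpha, from 9.85, 9.80 and 9.96 to 9.41, 9.01 and 8.83 (adjusted p = 0.0356). These were the only genes of 48 on heterochromatin and H3K9 methylation that passed (4.17%), and the list's median was -0.20. Other probe sets gave -0.66 and -0.47 for Suv39h2 and between -0.73 and -0.09 for Cbx5. Without the 4 arrays in doubt 8 of the 48 fell, against 3.93% of all genes.

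The inhibitors of cyclin-dependent kinases did not rise past the threshold. Cdkn1a (p21) was at 11.56, 12.25 and 12.56 without and 12.21, 12.87 and 13.20 with treatment, with differences of 0.65, 0.61 and 0.64 (SE 0.77, 95% interval -1.04 to 2.32, adjusted p = 0.727). The SE, taken from all arrays, was larger than the difference, although the 3 pairs nearly coincided. Cdkn3, a phosphatase that acts on these kinases, fell by 1.09 (adjusted p = 0.0287, and 0.0509 without the 4 arrays). Cdkn2a, the Ink4a/Arf gene, had differences of 1.06, 3.45 and -2.86, and Cdkn2b of 3.11, 0.39 and -0.62. Lmnb1, a lamina protein lost in senescence, differed by -0.90 (adjusted p = 0.102), and Glb1, the gene of senescence-associated beta-galactosidase, by 0.43 (adjusted p = 0.52). Fuca1, another lysosomal glycosidase, differed by 0.84 (adjusted p = 0.0722), Uchl1 by 1.48 (adjusted p = 0.0859), Hmga2 by 0.56, Plaur by 0.53, Gpnmb by 0.36 and Rb1 by 0.02. Igfbp5, Igfbp7, Tgfb1 and Dpp4 differed by between -0.32 and -0.07.

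Myc, the driving oncogene, was at 11.78, 11.83 and 11.72 without and 11.66, 11.59 and 12.09 with treatment (difference 0.01, SE 0.29, 95% interval -0.63 to 0.64, adjusted p = 0.997). The 39 genes of ribosome biogenesis and other Myc targets had a median of 0.01. Bcl2 differed by -0.91 (SE 0.83, adjusted p = 0.619) on the probe set used, and by 0.13 to 0.48 on its other probe sets; whether they read the retroviral copy is not given in the sources used here. Ccnd1 had differences of -1.68, 1.16 and 1.31 (adjusted p = 0.87).

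The remaining lists held few calls. None of 26 Bcl2 family and apoptosis genes (median 0.32), 17 genes of MHC class I (0.11), 18 of MHC class II (-0.07), 31 of glycolysis (-0.09), 25 Nrf2 targets (-0.06), 21 of the TGF-beta pathway (0.22) and 22 of the Wnt pathway (0.19) passed. Leaving out the 4 arrays, 3 Bcl2 family genes, 2 of MHC class II, 3 Nrf2 targets and 2 of the TGF-beta pathway rose, and 1 Bcl2 family and 1 Wnt gene fell. Of 28 AP-1 and immediate early genes (median 0.28) Klf2 passed, of 15 chemokine receptor and homing genes (0.51, with 10 above 0) S1pr1, of 13 Myc network genes (0.04) Mxd4, of 18 metalloproteinases and inhibitors (0.41) Mmp13, and of 21 lipid uptake genes (0.36) Cd36.

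Called genes differed in how evenly the lymphomas responded. Lyz1, Mmp13, Ms4a4c, Rad54b and Kif11 had the widest range of the 3 differences. Diaph3, Selenoh (-1.22, -1.05 and -1.16), Cth (-1.49, -1.32 and -1.46), Nsmce1 (-1.33, -1.33 and -1.21) and Rsrc1 (-1.32, -1.11 and -1.26) had the narrowest among those of at least 2-fold. Over the falling genes the median difference was -0.801 in lymphoma 4146, -1.19 in 4936 and -1.18 in 5043, and lymphoma 4146 had the smallest fall for 144 of the 244. Over the rising genes the medians were 0.843, 1.08 and 0.872.

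ADR without 4-OHT was compared with the same untreated arrays, so both differences share their controls and are set side by side. For ADR alone minus untreated limma called 0 genes (0%), with 1348 at an unadjusted p below 0.05 and a lowest adjusted p of 0.182. For the lysozymes, Mmp13, Cd36 and Ccl9 the differences after ADR alone were 6.68 (Lyz1), 5.66 (Lyz2), 5.08, 3.92 and 3.86, with adjusted p between 0.208 and 0.291. The ADR-only array of lymphoma 4936, one of those in doubt, was the highest for each: Lyz1 was at 8.52, 15.31 and 8.90, Cd36 at 8.09, 11.02 and 8.09, and Ccl9 at 8.42, 13.32 and 8.97. H1f4 (-2.84), Cth (-1.68) and Asns (-1.19) also stood near their values with 4-OHT, and the median of the amino acid list was -0.54 without and -0.56 with 4-OHT. That of the mitosis genes was -0.48 without and -1.21 with it, and that of the replication genes -0.21 and -0.92. Eqtn (0.93 without and 5.18 with 4-OHT), Ms4a4b (0.94 and 2.67) and Cenpp (-0.55 and -2.27) had the larger difference with 4-OHT. Lgals3, the gene of galectin 3 (4.10 and 1.54), and Bgn (3.62 and 1.27), neither of them called, had the smaller one.

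The direct test of 4-OHT within ADR, ADR+4-OHT minus ADR alone, called 0 of 11897 genes (0%) in limma, with 1490 at an unadjusted p below 0.05 and a lowest adjusted p of 0.127. Eqtn differed by 4.25 (SE 0.63, 95% interval 2.86 to 5.64, adjusted p = 0.127) and Cenpp by -1.72 (SE 0.26, 95% interval -2.29 to -1.15, adjusted p = 0.127). The interval is for 1 gene without adjustment. By fitted group difference, all 50 mitosis genes lay lower with 4-OHT than without, as did 6310 of all 11897 genes. Of 44 lysosome genes 34 lay higher, as did 5587 of all genes. Single lymphomas could go the other way. Kif11 in lymphoma 4146 was at 8.94 with ADR alone and 9.26 with both compounds. In 4936 it went from 8.96 to 7.87 and in 5043 from 8.81 to 6.79. The ADR-only group holds 1 of the arrays in doubt; without the 4 arrays the count was again 0 (1480 unadjusted). Weighting arrays by quality gave 521 calls, and a fit without the lymphoma term 13.

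**Figure D5:**
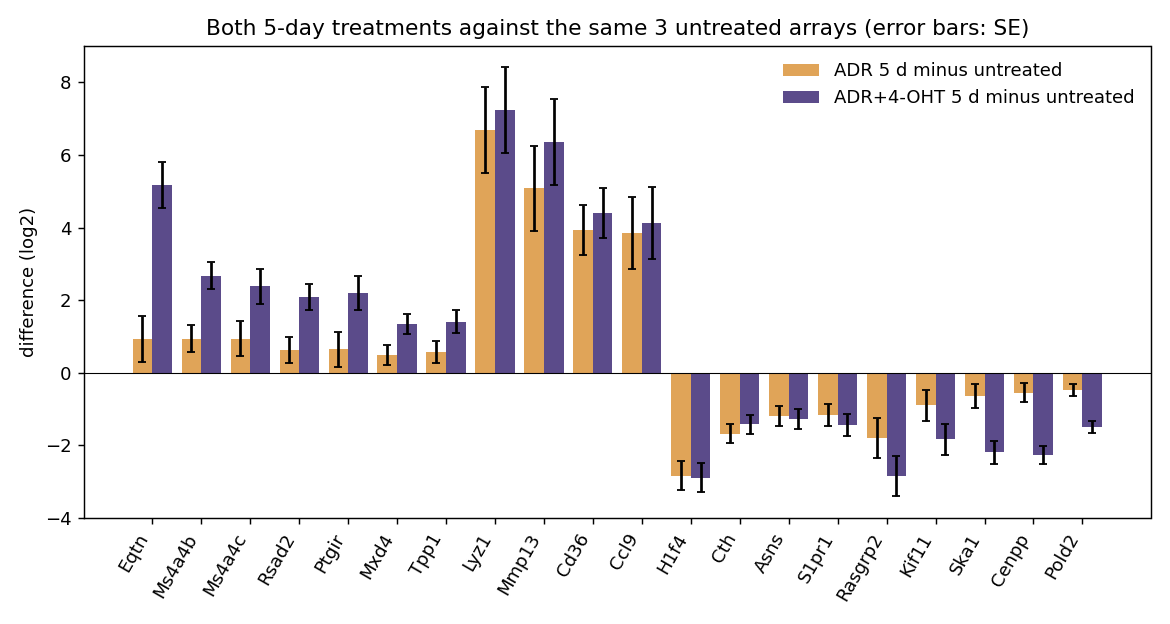
Fitted difference (y axis, log2, bars from 0, error bars are SE, n = 3 arrays a group) of 20 genes after ADR alone (orange) and after ADR with 4-OHT (violet), each against the same 3 untreated arrays. Eqtn stands at 0.93 and 5.18, Cenpp at -0.55 and -2.27, and H1f4 at -2.84 and -2.89.

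Outgrowth cultures had been kept for another 14 days without the compounds. Eqtn was at 2.10 to 3.22 in untreated, 3.41 to 4.16 in ADR-only and 6.78 to 9.11 in treated cultures. Its range was 3.54 to 5.31 in big and at most 3.63 in small outgrowth cells, both from cultures that had received both compounds, and 1.73 and 3.67 after ADR alone (n = 2). Cenpp was at 6.19 to 6.30 in treated cultures and at 7.56 or above in all other arrays. Pold2 was at 8.66 to 8.97 in them and at 9.53 or above elsewhere. Lyz1 followed another order, with 8.36 to 9.33 in big and 3.46 to 5.56 in small outgrowth cells against 9.09 to 13.84 in treated cultures. Cd36 was at 6.65 to 8.40 in big and 4.26 to 5.29 in small cells. The groups share untreated controls and lymphomas, and 2 of the outgrowth arrays are in doubt, so these levels are given as a description.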

How the data were processed

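Total RNA of 18 cultures was hybridised to Affymetrix mouse arrays of 45101 probe sets, per the labels' protocols. The authors deposited log2 values, and the submitters' processing notes name RMA and Partek without versions. Every probe set has an equal median over the arrays of each lymphoma (tolerance 1e-06), so shifts between the lymphomas were taken out upstream, which no label describes. The ADR outgrowth of 5043 held no values. Probe sets with 1 gene symbol (34958) were kept, and a gene was tested where 3 or more arrays reached 4.86 (the median array value). limma 3.58.1 (R 4.3.3) fitted 6 groups and an additive lymphoma term to 17 arrays, two-sided, with Benjamini-Hochberg adjustment at 0.05. Replicates are lymphomas with 1 array each per group. A difference within 1 lymphoma has no test, and 3 pairs cannot go below an exact p of 0.25. The method was tested on simulated data. The genes compared, the 50 gene lists and the tests were chosen with earlier results of these data known. Genes named were drawn from the 25 with the largest rise and fall and the 10 with the lowest adjusted p. Up to 6 called members per list were added (where fewer than 2, the 2 largest as values). All senescence hallmarks, Myc, Bcl2, Suv39h2, Ccnd1 and Cdkn1a, and the 5 with the widest and narrowest spread between lymphomas were also named. So were markers of cell types. Others are marked as picked after their values were seen. Positions and sequences are from RefSeq tables of GRCm38.p6. Precision is limited by the number of arrays.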

Additional observations from a re-analysis of the deposited data

How the results depend on the processing

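The counts of 106 rising and 244 falling genes stayed within 1.5 times under no filter, a stricter filter, quantile normalisation, all probe sets, median centring, and a variance trend with robust fitting. Without the replicate block for lymphoma 218 rose and 405 fell. The mean over probe sets gave 47 and 154, and array weights 506 and 795. Without the 3 outlying arrays 198 rose, without the 4 arrays in doubt 312 and 467, and without the treated array of lymphoma 4146 alone, an alternative added after the data were seen, 138 and 409. The compared arrays alone gave 0 and 0. Leaving out 1 lymphoma gave 0 to 5 rising and 0 to 2 falling genes. Leaving out single arrays gave 14 calls (ADR+4-OHT of 5043) to 547 (ADR+4-OHT of 4146). For ADR+4-OHT minus ADR, array weights gave 521 calls and no replicate block 13, and leaving out 1 lymphoma gave 0 in each case (889 to 1464 at an unadjusted p below 0.05). The cause of these moves was not tested. None of the 94 named called genes changed sign under any alternative fitted per gene. Of them 84 kept their call without the 4 arrays and 62 with the mean over probe sets. Only 6 kept it without lymphoma 4936, and 0 without 4146, without 5043 or with the compared arrays alone. The median of the secreted factors moved from 0.90 to 0.62 without the 4 arrays, and that of the lysosome genes from 0.66 to 0.80.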

Other observations

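Afp, the fetal serum protein gene, was at 7.94 in the treated culture of lymphoma 4936 against 4.47 untreated, while lymphomas 4146 and 5043 had 4.46 and 4.29 after treatment. It was singled out after its values were seen. In the array of ADR alone of the same lymphoma, one of the arrays in doubt, it was at 14.72.

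Setd7, a histone and p53 lysine methyltransferase picked in the same way, rose from 9.87, 9.37 and 9.82 to 10.69, 10.78 and 10.84 (difference 1.08, SE 0.16, limma adjusted p = 0.0119, n = 3). Notch2 and Pck2 were picked in that way too. Notch2, a receptor of B-cell fate, rose by 1.30, 1.22 and 0.59 in the lymphomas (difference 1.04, SE 0.21, limma adjusted p = 0.0288). Pck2, the mitochondrial enzyme that makes phosphoenolpyruvate and is a known ATF4 target, fell by 1.64 (SE 0.33, limma adjusted p = 0.0278), with differences of -1.91, -1.27 and -1.75.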
